A study of Mus musculus with 4 samples.

Results

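The transforming growth factor beta (TGF-beta) superfamily was examined in mouse hearts labelled as lacking the Hippo pathway scaffold WW45 in cardiomyocytes and in control (CT) hearts. Members were taken by gene symbol: TGF-beta, bone morphogenetic protein (BMP), growth differentiation factor (GDF) and activin ligands, their receptors, the SMADs, follistatin-like and gremlin genes, and Ski, Skil, Smurf1, Smurf2, Bambi and Eng. Of 12408 listed genes, 41 matched. In the GENCODE M21 annotation 62 protein-coding symbols fit the same patterns, and the others were not listed and not analysed here. The deposited list appears to leave out genes at low levels. By role the 41 comprised 3 TGF-beta ligands, 7 BMP or GDF ligands, 2 activin or inhibin subunits, 12 receptors or pseudoreceptors, 7 SMADs, 4 repressors or ubiquitin ligases and 3 follistatin-like genes. The symbol patterns also took in 3 genes outside these roles: Bmp1 is a metalloprotease that trims procollagen, Bmp2k is a kinase, and Tgfbrap1 encodes a receptor-associated protein.

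RNA from hearts of 4 C57BL/6 mice, each 3 months old, had been sequenced, 1 mouse in each group. The mouse labelled cKO TAC carried floxed WW45 and a Cre recombinase under the alpha-MHC promoter, which is active in cardiomyocytes, and had been through 4 weeks of transverse aortic constriction (TAC), a narrowing of the aorta that puts the left ventricle under pressure. The CT TAC mouse had the same operation and period and carried floxed WW45 without Cre. The cKO baseline and CT baseline mice had these same genotypes at baseline. Thus all 4 mice carried the floxed allele, only the cKO mice carried Cre, and neither a Cre control without floxed WW45 nor a sham operation is among the labelled groups, so deletion and Cre, and pressure and surgery, cannot be told apart.

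Ligands of this superfamily are secreted as dimers and bind paired type I and type II receptor kinases. TGF-beta and activin receptors phosphorylate SMAD2 and SMAD3, and BMP receptors phosphorylate SMAD1, SMAD5 and SMAD9. These join SMAD4 and enter the nucleus, where SKI and SKIL limit the response. SMAD6 and SMAD7 limit it mainly at the receptors, and SMURF ubiquitin ligases mark receptors and SMADs for breakdown. In the heart, TGF-beta signalling is best known for turning fibroblasts into matrix-producing myofibroblasts, and GDF15 is a circulating stress cytokine.

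The libraries held 1587840 to 2796547 recovered reads, and the median member had 28 to 45.7 reads. Sav1, the gene of WW45, had 46.2 CPM (reads scaled to library size) in the library labelled cKO TAC against 35.4 in CT TAC, and 39.8 in cKO baseline against 49.3 in CT baseline. Both ratio intervals included 1 (0.941-fold to 1.81-fold under TAC, 0.590-fold to 1.09-fold at baseline), and under TAC the ratio ran against the label. Every direction drawn from that library below rests on its label. Some reads of 6 members (Acvrl1, Eng, Skil, Smad2, Tgfbr1 and Tgfbr2) were shared with other places, and exons of 15 of 41 members overlap another annotated gene, so that their values are less certain. Cardiomyocyte markers (8 of 8 listed, none at 0) summed to 75325 CPM in the library labelled cKO TAC, 93899.9 in CT TAC, and 87509 in cKO baseline against 105529 in CT baseline. Myh6 made up a large part of these sums, at 33239, 51827, 41570 and 57903 CPM in that order. Over the 8 genes the median log2 ratio of cKO to CT was -0.13 under TAC and -0.12 at baseline. Fibroblast markers (9 of 9) summed to 6941, 6046, 4955 and 3846 CPM in that order, and macrophage markers (10 of 10) to 888, 647, 1000.1 and 439 CPM. Endothelial markers (8 of 8) ranged from 1602 to 1987 CPM over the 4 libraries, mural markers (6 of 6) from 584 to 853 CPM and erythroid markers (3 of 5) from 737 to 2240.1 CPM. Of the lymphocyte markers 2 of 7 were listed and both had 0 reads in some library. Of the neutrophil markers 2 of 5 were listed, with 1 at 0 in some library, and of the atrial markers 1 of 3.

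With 1 mouse per group, each ratio of 2 libraries compares those libraries, not the conditions, has no replicate check and is given without a p-value. A gene is called where it was at least 2-fold apart on the deposited scale and the 95% interval of the ratio excluded 1. Intervals are exact (Clopper-Pearson), from reads, and cover counting error only. In a bulk library, fewer cells of a type and less RNA per cell cannot be told apart.

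In the mm10 build, the members described most are the protein-coding genes Tgfb2 (chr1:186622792-186705989, minus strand), Gdf15 (chr8:70629393-70632456, minus), Fstl1 (chr16:37776873-37836514, plus), Fstl3 (chr10:79777272-79782630, plus), Tgfb3 (chr12:86056745-86079041, minus), Tgfbr3 (chr5:107106570-107289629, minus), Bambi (chr18:3507923-3516404, plus) and Smad7 (chr18:75367529-75395935, plus). Values are whole-gene CPM.

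The accessory receptor endoglin (Eng), an endothelial co-receptor for TGF-beta and BMP9, had the highest level per length. Per kilobase of merged exons, Eng averaged 58.1 CPM over the 4 libraries, Fstl1 22.1, Acvrl1 (the endothelial type I receptor ALK1) 13.1, Ski 11.1, Smad4 10.6, Bmpr1a 10.5 and Tgfb1 10.02. Eng had 260.0 CPM in the library labelled cKO TAC, 199 in CT TAC, and 220.0 in cKO baseline against 263 in CT baseline, with the groups of either contrast overlapping. At the lower end, Bmp5, Inhba, Gdf10 and Acvr2b averaged 0.255 to 0.339 CPM per kilobase, and 7 of 41 members had fewer than 10 reads in every library. Among the ligands the per-kilobase order was Tgfb1 at 10.02, Gdf15 at 9.52, Bmp6 at 5.08, Bmp4 at 4.32, Tgfb3 at 4.00 and Tgfb2 at 2.48, as means over the 4 libraries. Gdf15 and Tgfb1 did not hold that order in each heart. Per kilobase, Gdf15 had 14.1 CPM in the library labelled cKO TAC, 6.74 in CT TAC, and 15.9 in cKO baseline against 1.40 in CT baseline, while Tgfb1 had 12.4, 12.9, 7.52 and 7.28 in that order.

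**Figure D1:**
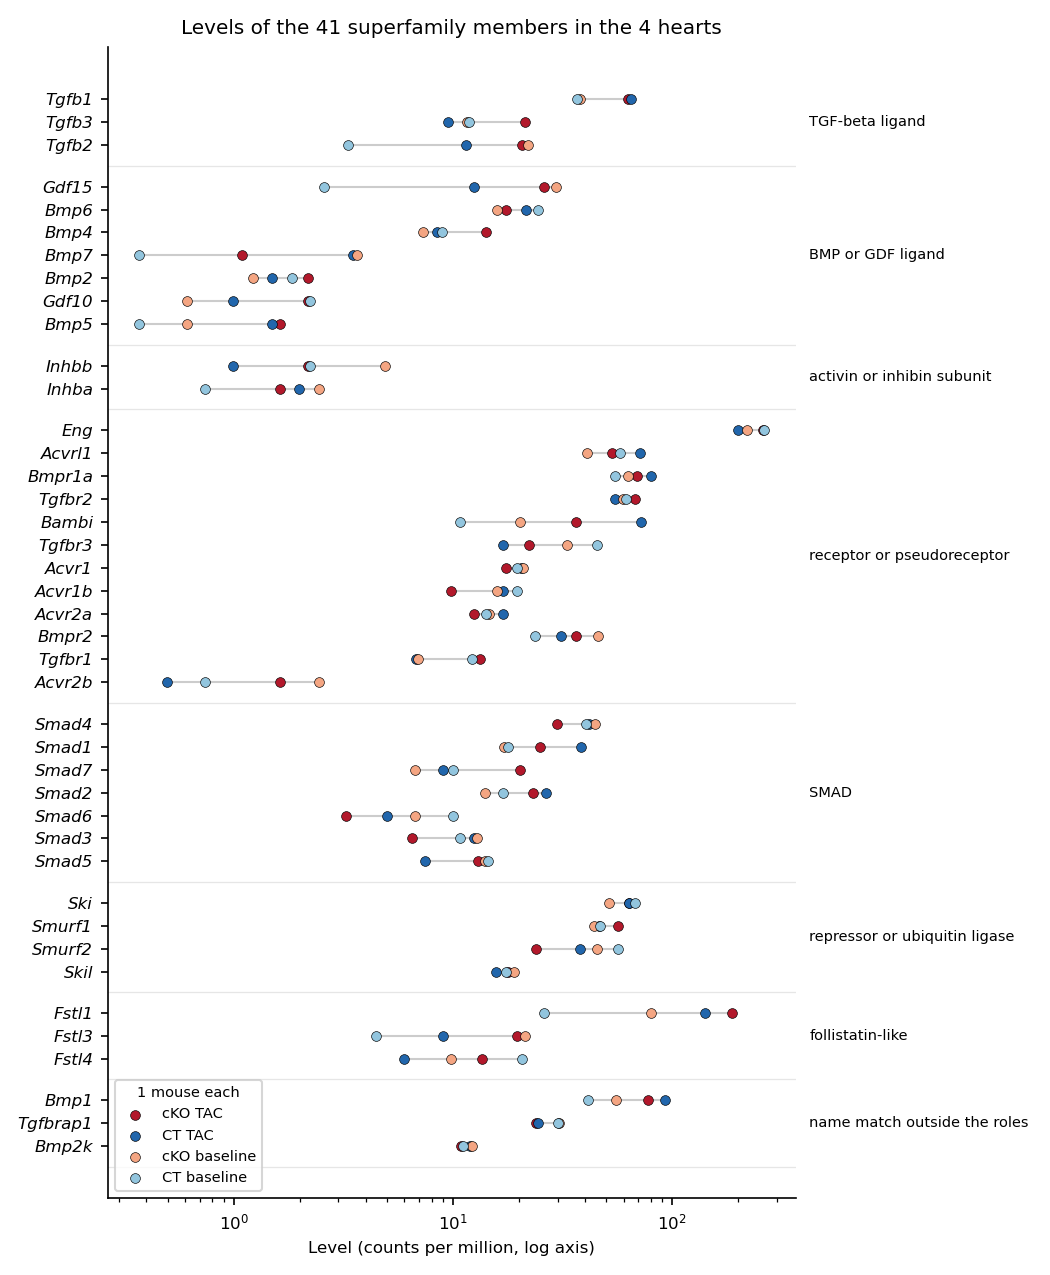
Level of each of the 41 members in CPM (log axis), by role. Each point is 1 heart and each grey line joins the lowest and highest of 4. Bmp7, Gdf15, Fstl1, Bambi and Tgfb2 have long lines, while Bmp2k, Skil and Tgfbrap1 have short ones.

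At baseline the cKO heart differed from the CT heart in a few ligands and follistatin-like genes, while no receptor, SMAD, repressor or SMURF ligase was called on the deposited scale (scaled to total reads, the receptor Bmpr2 was). Of 41 members, 6 were called (14.6%), against a background of 5.05% of all genes called. Higher were 5 of them, Gdf15, Tgfb2, Bmp7, Fstl3 and Fstl1 (background 3.26%), and Fstl4 was lower (background 1.79%). The median log2 ratio of the members was 0.03, and that of all genes 0.00.

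Gdf15, a divergent GDF that acts through the brainstem receptor GFRAL and is released by stressed cells, had 26.1 CPM (19.2 to 34.6) in the library labelled cKO TAC and 12.5 (8.08 to 18.4) in CT TAC. At baseline the cKO heart had 29.4 CPM (21.6 to 38.9) and the CT heart 2.59 (1.04 to 5.35). The cKO hearts stood above both CT hearts, and CT baseline stood lowest. Its log2 ratio of cKO baseline to CT baseline was 3.27, from 48 reads against 7 (interval 5.09-fold to 29.6-fold).

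Tgfb2, the TGF-beta isoform prominent in the embryonic heart valves and outflow tract, had 20.7 CPM (14.6 to 28.4) in the library labelled cKO TAC and 11.5 (7.28 to 17.2) in CT TAC. In cKO baseline it had 22.02 CPM (15.4 to 30.5), and in CT baseline 3.34 (1.53 to 6.33). As with Gdf15, both cKO hearts lay above both CT hearts. The log2 ratio of cKO baseline to CT baseline was 2.56, from 36 reads against 9 (interval 3.12-fold to 15.6-fold).

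The other TGF-beta isoforms had ratios near 1 at baseline. Tgfb1, the isoform most studied in fibrosis, had 37.9 CPM (29.1 to 48.6) in cKO baseline and 36.7 (29.8 to 44.7) in CT baseline, a log2 ratio of 0.05. Tgfb3 had 11.6 CPM (6.997 to 18.1) in cKO baseline and 11.9 (8.11 to 16.7) in CT baseline, a log2 ratio of -0.03. Intervals of these ratios spanned 0.740-fold to 1.43-fold for Tgfb1 and 0.525-fold to 1.78-fold for Tgfb3, so changes within those bounds were not detectable at this depth.

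The make-up of the TGF-beta ligand reads differed between the baseline hearts, a measure that does not depend on library scaling. Tgfb2 took 30.8% of the reads of the 3 genes in cKO baseline (36 of 117, exact binomial interval 22.6% to 40.0%) and 6.43% in CT baseline (9 of 140, 2.98% to 11.9%). Under TAC its share was 19.8% in the library labelled cKO TAC (38 of 192, 14.4% to 26.1%) and 13.4% in CT TAC (23 of 172, 8.67% to 19.4%). The baseline intervals do not overlap and those under TAC do. Tgfb1 took the largest share in each heart, between 53.0% and 75.6%, and also per kilobase, between 51.0% and 72.9%.

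**Figure D2:**
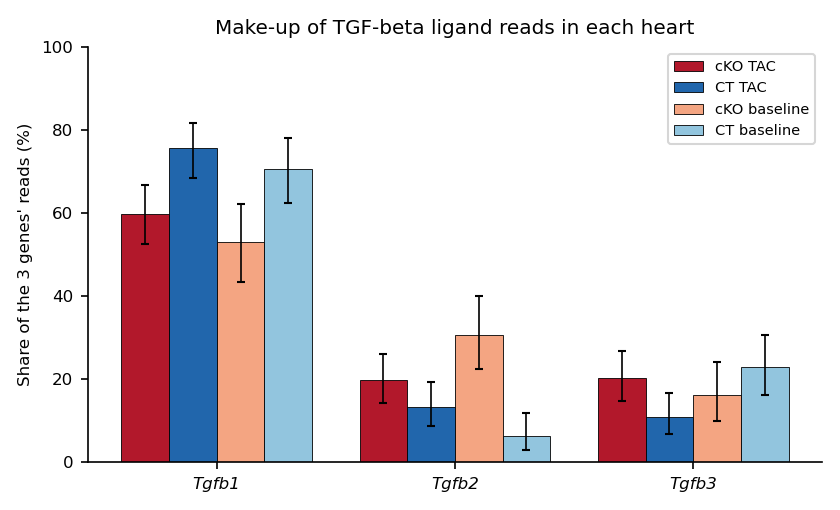
Share of the reads of Tgfb1, Tgfb2 and Tgfb3 that each gene took in each heart (y axis, percent, from 0), with 95% exact binomial intervals that cover counting error only. The Tgfb2 bar is at 30.8% in cKO baseline and at 6.43% in CT baseline, and the bars under TAC lie between them.

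Fstl3 encodes a secreted glycoprotein that binds and blocks activins and myostatin. Fstl3 stood at 19.6 CPM (13.7 to 27.1) in the library labelled cKO TAC, 8.98 (5.33 to 14.2) in CT TAC, and 21.4 (14.9 to 29.8) in cKO baseline against 4.45 (2.30 to 7.77) in CT baseline. Both cKO hearts were above both CT hearts, with a log2 ratio of cKO to CT of 2.15 at baseline (35 reads against 12, interval 2.44-fold to 10.2-fold). Its exons share 1157 bases with Prss57 on the opposite strand, and without known strand in the counting the reads of the pair cannot be told apart.

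Fstl1, a secreted glycoprotein made mainly by mesenchymal cells, had 187 CPM (167 to 207) in the library labelled cKO TAC, 141 (125 to 159) in CT TAC, and 80.1 (67.0 to 95.1) in cKO baseline against 25.9 (20.2 to 32.8) in CT baseline. The 4 hearts stood in that order without overlap of their counting intervals. At baseline its log2 ratio of cKO to CT was 1.61 (131 reads against 70, interval 2.29-fold to 4.19-fold). Beside it, fibroblast markers were higher in 4 of 9 genes and macrophage markers in 6 of 10 in the same pair, with median log2 ratios of 0.71 and 1.08. The part of either cell type in these member ratios was not tested.

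Bmp7 and Fstl4 were called on few reads or near the limit. Bmp7, a BMP ligand that opposes TGF-beta in several tissues, had 6 reads in cKO baseline and 1 in CT baseline. Its deposited log2 ratio of 2.27 includes an added read, and its interval ran from 1.2-fold to 455-fold. Fstl4, a follistatin-like gene of less settled function, had 9.79 CPM (5.59 to 15.9) in cKO baseline and 20.8 (15.7 to 27.0) in CT baseline, a log2 ratio of -1.05. Scaled to total reads that ratio was -0.95, short of 2-fold. Bambi and Bmpr2 lay just short of 2-fold at 0.88 and 0.94, with intervals above 1. Scaled to total reads, Bmpr2 was at 1.03 and was called, and Bambi was at 0.97.

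The start regions of the 4 best-counted genes that were higher in cKO baseline are shown so that their letters can be compared with the binding motifs of the pathway. Sequences are RefSeq windows of GRCm38.p6, of 300 bases, mostly before the transcript start and running just past it, on the strand of the gene: Tgfb2 at chr1:186705940-186706239 on the minus strand, Gdf15 at chr8:70632407-70632706 and chr8:70632046-70632345 on the minus strand, Fstl1 at chr16:37776805-37777104 on the plus strand and Fstl3 at chr10:79777024-79777323 on the plus strand. Capitals mark the searched motifs on either strand: CAGAC or its complement GTCTG (the SMAD3 and SMAD4 box), GGCGCC (a GC-rich SMAD box of BMP targets, its own complement) and CATTCC or GGAATG (the TEAD motif). Gdf15 is shown at both of its listed starts, and the other 3 genes have 1 listed start each.
Tgfb2 promoter: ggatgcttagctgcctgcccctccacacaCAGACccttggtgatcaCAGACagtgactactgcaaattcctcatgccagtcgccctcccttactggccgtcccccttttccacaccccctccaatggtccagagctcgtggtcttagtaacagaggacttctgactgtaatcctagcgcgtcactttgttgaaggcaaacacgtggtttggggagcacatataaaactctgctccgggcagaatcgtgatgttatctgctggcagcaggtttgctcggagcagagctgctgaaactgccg
Gdf15 promoter, first start: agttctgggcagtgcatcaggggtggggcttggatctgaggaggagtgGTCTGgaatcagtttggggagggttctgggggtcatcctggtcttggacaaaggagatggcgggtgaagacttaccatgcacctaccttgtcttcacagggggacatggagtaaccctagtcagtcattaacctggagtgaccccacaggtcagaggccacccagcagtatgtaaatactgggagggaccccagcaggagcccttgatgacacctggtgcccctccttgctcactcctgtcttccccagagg
Gdf15 promoter, second start: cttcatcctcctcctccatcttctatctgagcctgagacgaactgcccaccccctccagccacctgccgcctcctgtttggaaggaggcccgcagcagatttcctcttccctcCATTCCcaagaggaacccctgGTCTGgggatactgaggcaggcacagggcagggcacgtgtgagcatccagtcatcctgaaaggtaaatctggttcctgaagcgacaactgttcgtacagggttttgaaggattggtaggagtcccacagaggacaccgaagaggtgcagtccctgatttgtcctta
Fstl1 promoter: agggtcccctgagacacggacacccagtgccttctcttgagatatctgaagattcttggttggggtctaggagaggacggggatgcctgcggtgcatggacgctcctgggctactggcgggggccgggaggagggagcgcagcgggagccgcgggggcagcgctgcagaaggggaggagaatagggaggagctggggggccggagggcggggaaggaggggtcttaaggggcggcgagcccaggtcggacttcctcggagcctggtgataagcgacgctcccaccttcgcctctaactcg
Fstl3 promoter: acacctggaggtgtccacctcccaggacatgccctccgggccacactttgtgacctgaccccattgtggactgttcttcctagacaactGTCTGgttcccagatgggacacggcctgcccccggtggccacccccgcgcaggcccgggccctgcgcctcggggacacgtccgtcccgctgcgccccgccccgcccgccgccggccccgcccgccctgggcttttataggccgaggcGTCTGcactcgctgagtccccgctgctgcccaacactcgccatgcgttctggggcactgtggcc
The Tgfb2 window held 2 CAGAC boxes, the Fstl3 window 2 in the GTCTG direction, each Gdf15 window 1 in the GTCTG direction and the Fstl1 window 0. None of these windows held GGCGCC. The TEAD motif occurred once, as CATTCC in the window of the second Gdf15 start. Across all 32851 windows, CAGAC occurred in 49.6%, GGCGCC in 11.9% and CATTCC in 14.7%. Windows matched 30 of 41 members (35 windows), of which 48.6% held CAGAC, 31.4% GGCGCC and 2.86% CATTCC, the last being that 1 Gdf15 window. A match or its absence describes these letters only.

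**Figure D3:**
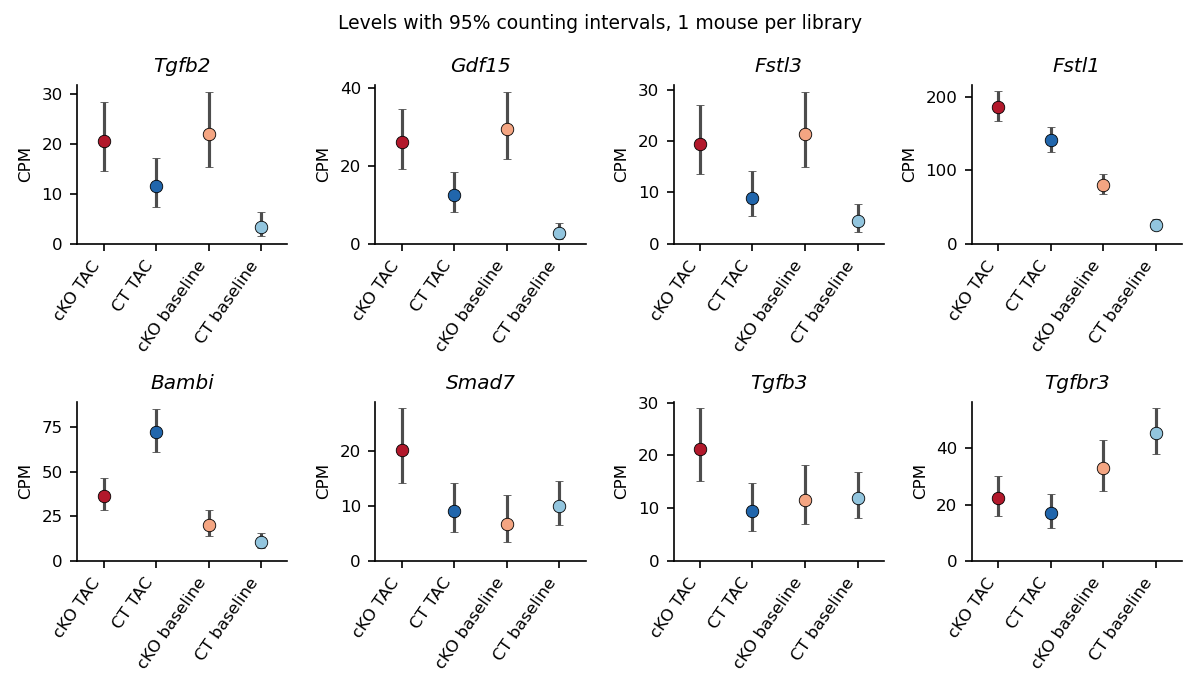
Level in CPM (y axis, from 0) of 8 members in the 4 hearts. Points are libraries and bars are 95% exact counting intervals, which leave out variation between mice. Tgfb2, Gdf15 and Fstl3 are lowest in CT baseline and at like levels in cKO TAC and cKO baseline, while Bambi is highest in CT TAC.

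Under TAC the called members were in part others than at baseline, and all were higher in the library labelled cKO TAC. Of 41 members 5 were called in the library labelled cKO TAC against CT TAC (12.2%, background 5.02%), all 5 higher (background 2.93%) and none lower (background 2.1%). The 5 were Gdf15 (log2 ratio 1.04, interval 1.26-fold to 3.54-fold), Fstl3 (1.08, 1.21-fold to 4.08-fold), Fstl4 (1.12, 1.10-fold to 4.96-fold), Tgfb3 (1.12, 1.26-fold to 4.10-fold) and Smad7 (1.12, 1.24-fold to 4.18-fold). All lay close to the 2-fold limit, and their common direction depends on it. At 1.5-fold, Tgfb2 (0.82) was called higher as well, and Bambi (-0.98), Smad1 (-0.61) and Smurf2 (-0.65) were called lower. Over all genes at 2-fold, 363 were called higher and 260 lower (58.3% higher). Scaled to total reads, 479 and 181 were called (72.6% higher). The median log2 ratio of all genes was then 0.10, against 0.01 as deposited.

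Tgfb3, an isoform also made by activated fibroblasts, had 21.2 CPM (15.1 to 29.0) in the library labelled cKO TAC and 9.48 (5.71 to 14.8) in CT TAC. That library stood above the other 3, which lay between 9.48 and 11.9 CPM. Smad7, the inhibitory SMAD that recruits SMURF ligases to the TGF-beta receptor, had 20.1 CPM (14.2 to 27.7) in the library labelled cKO TAC and 8.98 (5.33 to 14.2) in CT TAC, against 6.73 (3.36 to 12.0) in cKO baseline and 10.01 (6.60 to 14.6) in CT baseline. Smad6, the inhibitory SMAD that prefers BMP receptors, had 3.26 CPM in the library labelled cKO TAC, 4.99 in CT TAC, and 6.73 in cKO baseline against 10.01 in CT baseline. Smad7 took 86.0% of the reads of this pair in the library labelled cKO TAC (37 of 43, exact binomial interval 72.1% to 94.7%). In CT TAC it took 64.3% (18 of 28, 44.1% to 81.4%), and these intervals overlap. In cKO baseline and CT baseline Smad7 took 50.0% each (11 of 22 and 27 of 54).

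Tgfb2 (log2 ratio 0.82) and Fstl1 (0.40) were above 0 without being called under TAC. Bambi, a kinase-less pseudoreceptor that blocks TGF-beta and BMP signalling, was at -0.98, with 36.4 CPM (28.2 to 46.3) in the library labelled cKO TAC and 72.4 (61.1 to 85.2) in CT TAC, just short of 2-fold lower. Fibroblast markers had a median of -0.05 in this pair with none called, and macrophage markers 0.41 with 1 of 10 called. Erythroid markers were higher in 3 of 3.

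Over both states, limma called no member for genotype at an adjusted p under 0.05, and 3 of 12408 genes in all (0.0242%), namely Ctgf, Acta2 and Prg4, all higher in cKO. At an unadjusted p under 0.05, 4 of 41 members (9.76%) stood out, against 7.77% of all genes, and all 4 were higher (background 4.13% higher and 3.63% lower). The 4 were Gdf15 (2.16 log2 units, SE 0.48, limma adjusted p = 0.243), Tgfb2 (1.69, SE 0.44, adjusted p = 0.375), Fstl3 (1.62, SE 0.39, adjusted p = 0.308) and Fstl1 (1.00, SE 0.27, adjusted p = 0.433), each higher in cKO in both states. The 2 mice per side differed in the other factor, so the 1 residual degree of freedom does not measure spread between replicate mice. The limma p-values lean on a prior variance drawn from all genes (10.05 prior degrees of freedom). With 2 mice per side and 1 residual degree of freedom, these values do not show that the members were equal. Both cKO hearts lay beyond both CT hearts for 9 of 41 members (22%), against 29.6% of all genes.

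**Figure D4:**
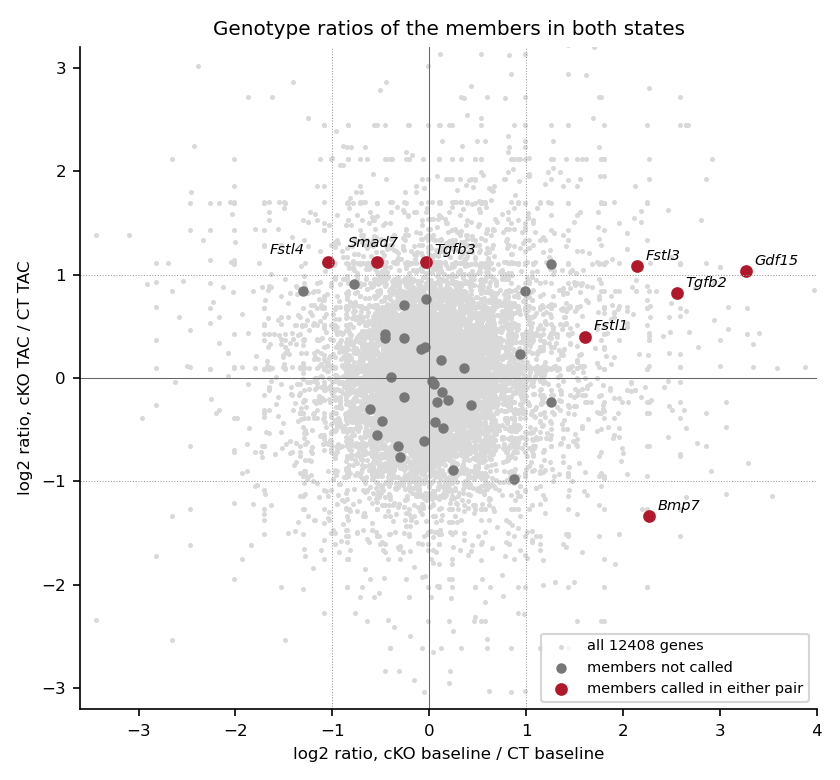
Log2 ratio of cKO to CT at baseline (x axis) and under TAC (y axis) for each member and, in grey, for all genes. Red points are members called in either pair, dotted lines mark 2-fold, and 20 genes lie outside the axes. Gdf15 and Fstl3 lie above 2-fold on both axes, Tgfb2 at 2.56 and 0.82, and Fstl4 at -1.05 and 1.12.

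Between the CT hearts, ligands, a pseudoreceptor, a co-receptor, a SMAD and follistatin-like genes were called. Of 41 members 9 were called in CT TAC against CT baseline (22%, background 10.7%), 7 higher (17.1%, background 6.06%) and 2 lower (4.88%, background 4.68%). The higher were Bambi, Fstl1, Bmp7, Gdf15, Tgfb2, Bmp1 and Smad1, and the lower were Tgfbr3 and Fstl4. The median log2 ratio was -0.01 over the members and 0.01 over all genes.

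Bambi had 72.4 CPM in CT TAC and 10.7 (7.20 to 15.4) in CT baseline, a log2 ratio of 2.70 (145 reads against 29, interval 4.50-fold to 10.4-fold). Fstl1 was 2.42 log2 units higher (283 reads against 70, interval 4.18-fold to 7.18-fold). Gdf15 was 2.07 higher (25 reads against 7, interval 2.02-fold to 13.2-fold) and Tgfb2 1.65 higher (23 against 9, interval 1.53-fold to 8.45-fold). For Bmp7, 7 reads stood against 1 (log2 ratio 2.21, interval 1.21-fold to 425-fold). This comparison and that of the baseline hearts share CT baseline as the denominator, so that their ratios for the same gene are not independent.

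Smad1, the BMP-activated SMAD, had 38.4 CPM (30.3 to 48.0) in CT TAC and 17.8 (13.1 to 23.6) in CT baseline, a log2 ratio of 1.09 (interval 1.49-fold to 3.17-fold). Its partner Smad5 was at -0.91 in the same pair, with 7.49 CPM (4.19 to 12.3) in CT TAC and 14.5 (10.3 to 19.8) in CT baseline. Bmp1 had 92.8 CPM (80.0 to 107) in CT TAC and 41.1 (33.8 to 49.5) in CT baseline, a log2 ratio of 1.16. Tgfbr3, or betaglycan, the co-receptor that presents TGF-beta2 to its receptor, had 17.0 CPM (11.8 to 23.7) in CT TAC and 45.6 (37.9 to 54.4) in CT baseline, a log2 ratio of -1.40 (interval 0.247-fold to 0.548-fold). Fstl4 was at -1.71 (12 reads against 56, interval 0.141-fold to 0.545-fold). Tgfb1 was at 0.81, short of 2-fold, with 64.9 CPM (54.2 to 77.1) in CT TAC against 36.7 in CT baseline. In this pair fibroblast markers were called higher in 6 of 9 genes (median 1.12) and macrophage markers in 2 of 10 (median 0.62), and their part in the member ratios was not tested.

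In cKO hearts fewer members were called between states. In the library labelled cKO TAC against cKO baseline 2 of 41 were called (4.88%, background 6.53%), both higher (background 3.68%) and none lower (background 2.84%). Fstl1 was 1.21 log2 units higher (343 reads against 131, interval 1.90-fold to 2.87-fold), and Smad7 was 1.51 higher (37 against 11, interval 1.49-fold to 6.50-fold). Gdf15 (-0.17), Tgfb2 (-0.09) and Fstl3 (-0.13) were near 0, while Bambi (0.84), Tgfb3 (0.84) and Tgfb1 (0.71) had fold intervals wholly above 1 but were short of 2-fold. Tgfb1 had 62.5 CPM (51.6 to 75.1) in the library labelled cKO TAC against 37.9 in cKO baseline. Fibroblast markers were higher in 6 of 9 genes here too (median 1.15), and macrophage markers in none of 10 (median -0.10).

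Over both genotypes limma called 2 members for TAC, and both rose (4.88% of members, against 1.82% of all genes called, 1.3% higher and 0.524% lower). Fstl1 rose by 1.82 log2 units (SE 0.27, limma adjusted p = 0.00812) and Bambi by 1.77 (SE 0.38, limma adjusted p = 0.0475), and each was higher under TAC in both genotypes. The additive model assumes 1 TAC effect for both genotypes, while the TAC ratios in cKO and CT differed by -1.21 for Fstl1 and -1.86 for Bambi. Beside these 2 members 5 of 9 fibroblast markers rose, and the part of the markers was not tested. No member and no fibroblast marker was called without a variance trend or without the genotype term, and Bambi, near the threshold, kept its call in 1 of 6 alternatives. At an unadjusted p under 0.05, 8 of 41 members stood out (19.5%, against 16.2% of all genes), 6 of them higher and 2 lower (background 8.85% and 7.37%). Beside Fstl1 and Bambi these were Bmp1 (0.82, limma adjusted p = 0.121), Tgfb1 (0.76, adjusted p = 0.126), Smad1 (0.81, adjusted p = 0.2), Smad2 (0.67, adjusted p = 0.292), Tgfbr3 (-0.98, adjusted p = 0.132) and Smurf2 (-0.74, adjusted p = 0.171). Both TAC hearts lay beyond both baseline hearts for 14 of 41 members (34.1%), against 46% of all genes. Smurf2, a ubiquitin ligase that acts with SMAD7, had 23.9 CPM (17.4 to 32.1) in the library labelled cKO TAC, 37.9 (29.9 to 47.5) in CT TAC, and 45.3 (35.5 to 56.8) in cKO baseline against 56.7 (48.1 to 66.4) in CT baseline.

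The TAC ratio differed between the genotypes by at least 2-fold, with a counting interval (Wald, from reads) that excluded 0, for 8 of 41 members (19.5%, background 7.4%). For 6 of these members (14.6%, background 5.82%) the TAC ratios also had opposite signs in the genotypes. In each of the 6, the interval of the TAC ratio in cKO, in CT or in both included 1, so opposite directions were not shown. No residual degree of freedom was left to test the difference of the TAC ratios. It was negative for 4 members (background 3.79%): Gdf15 by -2.24 log2 units (-3.58 to -0.90), Bambi by -1.86 (-2.69 to -1.03), Tgfb2 by -1.74 (-3.03 to -0.44) and Fstl1 by -1.21 (-1.68 to -0.73). It was positive for 4 (background 3.61%): Fstl4 by 2.17 (0.89 to 3.44), Tgfbr1 by 1.69 (0.32 to 3.05), Smad7 by 1.66 (0.36 to 2.96) and Tgfb3 by 1.15 (0.01 to 2.29). For Gdf15 and Tgfb2 the cKO values lay close together under TAC and at baseline, while CT TAC lay above CT baseline.

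**Figure D5:**
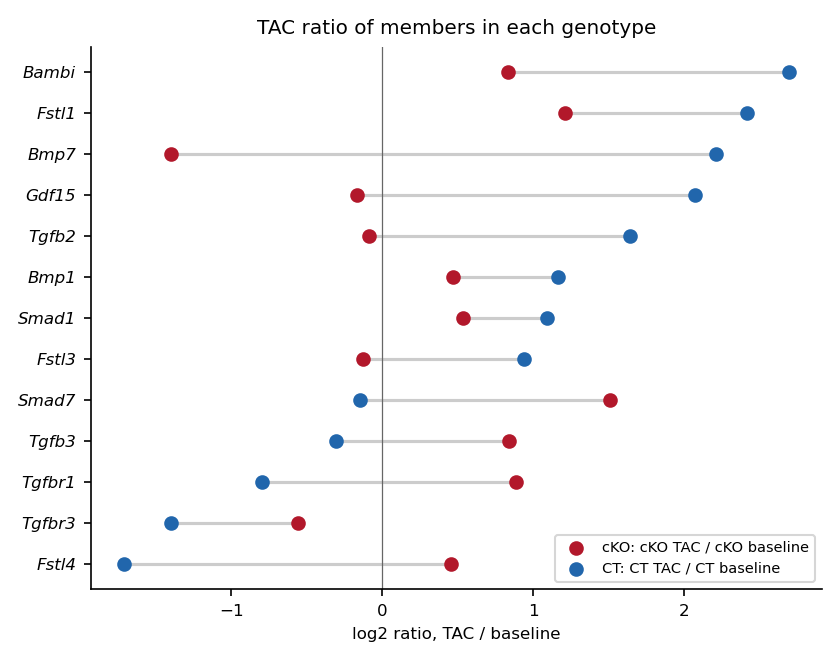
Log2 ratio of TAC to baseline (x axis) in cKO hearts (red) and CT hearts (blue), each from 2 libraries of 1 mouse, for the members called in any pair or past 2-fold in the difference. Bambi and Fstl1 are above 0 in both genotypes, Gdf15 and Tgfb2 are above 0 in CT and near 0 in cKO, and Smad7 is above 0 in cKO and near 0 in CT.

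No receptor kinase was called in any of the 4 pairs on the deposited scale. Scaled to total reads, Bmpr2 was called in cKO baseline against CT baseline (log2 ratio 1.03). Tgfbr2, the type II TGF-beta receptor, had 67.4 CPM (56.1 to 80.4) in the library labelled cKO TAC, 54.7 (45.1 to 66.2) in CT TAC, and 59.9 (48.7 to 73.1) in cKO baseline against 61.7 (52.9 to 72.0) in CT baseline, with all 4 intervals overlapping. Tgfbr1, the type I receptor, had 13.2 CPM (8.36 to 19.4) in the library labelled cKO TAC, 6.82 (3.82 to 11.7) in CT TAC, and 6.93 (3.36 to 12.0) in cKO baseline against 12.2 (8.42 to 17.2) in CT baseline. Its ratios, between -0.80 and 0.91, were not called in any pair, and some of its reads were shared with other places. Bmpr1a, a type I BMP receptor, had 69.1 CPM in the library labelled cKO TAC, 79.9 in CT TAC, and 63.0 in cKO baseline against 54.9 in CT baseline, with both TAC hearts above both baseline hearts. Bmpr2, the type II BMP receptor, had 45.9 CPM (36.1 to 57.5) in cKO baseline and 23.7 (18.3 to 30.3) in CT baseline, and 36.4 (28.2 to 46.3) in the library labelled cKO TAC against 30.9 (23.7 to 39.7) in CT TAC. The type I receptors Acvr1 and Acvr1b and the type II receptor Acvr2a lay between 9.79 and 20.8 CPM in each heart, and Acvr2b had 1 to 4 reads.

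No signal-transducing SMAD was called between genotypes in either state. Smad4, the shared partner, had 29.9 CPM (22.5 to 38.9) in the library labelled cKO TAC, 41.9 (33.4 to 51.9) in CT TAC, and 44.7 (35.0 to 56.1) in cKO baseline against 40.4 (33.2 to 48.7) in CT baseline. Smad2, which carries TGF-beta and activin signals, had 23.2 CPM in the library labelled cKO TAC, 26.5 in CT TAC, and 14.1 in cKO baseline against 16.9 in CT baseline, so both TAC hearts lay above both baseline hearts. Smad3, its partner in fibroblast activation, had 6.53 CPM (3.37 to 11.4) in the library labelled cKO TAC, 12.5 (8.08 to 18.4) in CT TAC, and 12.8 (7.95 to 19.6) in cKO baseline against 10.7 (7.20 to 15.4) in CT baseline. Of the nuclear repressors, Ski had 63.6 CPM in the library labelled cKO TAC, 63.4 in CT TAC, and 51.4 in cKO baseline against 67.8 in CT baseline, and Skil 15.6 to 19.0 CPM over the 4 hearts. Smurf1, the ligase first tied to BMP SMADs, had 56.6 CPM in the library labelled cKO TAC, 46.4 in CT TAC, and 44.0 in cKO baseline against 46.7 in CT baseline. Neither Ski nor Smurf1 was called in any pair. Among BMP ligands, Bmp6, made by endothelial cells in the control of iron, had 17.4 CPM in the library labelled cKO TAC, 21.5 in CT TAC, and 15.9 in cKO baseline against 24.5 in CT baseline, so both cKO hearts lay below both CT hearts, with no pair called. Bmp4 had 7.34 to 14.1 CPM, and Bmp2, Bmp5 and Gdf10 each had 1 to 6 reads in any heart. Of the activin subunits, Inhba had 3 reads in the library labelled cKO TAC, 4 in CT TAC, and 4 in cKO baseline against 2 in CT baseline, and Inhbb had 4, 2, 8 and 6 in that order.

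Around the members, several genes that store and free latent TGF-beta were called. Among the library pairs, the intracellular partners were called only in CT TAC against CT baseline. Of 19 measured latent-binding and activation genes, 5 were called higher and 1 lower in cKO baseline against CT baseline (background 3.26% and 1.79% of all genes). Ltbp2, Fbn1, Fbn2 (9 reads against 3), Thbs1 and Itgb6 were higher and Furin lower, with a median of 0.25 over the 19. In the library labelled cKO TAC against CT TAC, Plat was higher and Itgb6 lower (background 2.93% and 2.1%). Between TAC and baseline hearts, 6 were higher and 1 lower in CT (background 6.06% and 4.68%), and 4 higher and 1 lower in cKO (background 3.68% and 2.84%). In limma 4 of 19 rose with TAC and none fell (background 1.3% and 0.524%). The 4 were Ltbp2 (3.86 log2 units, SE 0.34, limma adjusted p = 0.000387), Ltbp3 (1.26), Fbn1 (1.17) and the matrix metalloprotease Mmp2 (1.32). None of the 19 was called without a variance trend or without the genotype term. Furin, the protease that cleaves TGF-beta precursors, had 249 reads in CT TAC and 772 in CT baseline, a log2 ratio of -1.2, and was at -1.11 in cKO baseline against CT baseline.

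Of 28 measured intracellular partners and ubiquitin enzymes, none was called in either genotype pair (background 5.05% at baseline and 5.02% under TAC) or in cKO between states (background 6.53%). In CT TAC against CT baseline 3 were higher and none lower (background 6.06% and 4.68%, 10.7% in either direction). They were Dab2 at 1.60, Tgif1 at 2.13 (7.2 reads against 1.2) and Fkbp1a at 1.00, each with some shared reads. None of the 28 passed limma in either term, though Dab2 did for TAC among genes with a mean CPM of at least 5. Of 18 measured other extracellular modulators, Bgn was the only one called in cKO baseline against CT baseline (1.06, background 5.05%). Nbl1 was the only one in the library labelled cKO TAC against CT TAC (2.12, background 5.02%). Between TAC and baseline hearts, 3 were higher (Bgn, Dcn and Lefty1) and 2 lower (Htra1 and Twsg1) in CT (background 6.06% and 4.68%). In cKO 4 were higher (Nbl1, Bgn, Dcn and Lefty1, background 3.68%). Lefty1 had 7 reads in the library labelled cKO TAC and 0 in cKO baseline, or 2.07-fold when a floor of 3 reads replaces the 0. That figure depends on the chosen floor and is not a lower bound. In CT it had 8 reads under TAC and 2 at baseline. Without the added read, Lefty1 passed 1 CPM only in the TAC libraries. It may thus be listed through them, and its TAC calls are no independent support. In limma Bgn (1.89) and Dcn (1.08), proteoglycans that bind TGF-beta, rose with TAC, and the protease gene Htra1 fell by 1.03 log2 units (adjusted p = 0.0485). Htra1 kept that call in 1 of 6 alternatives and Bgn and Dcn in 4, and none of the 3 was called without a variance trend or without the genotype term.

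Known TGF-beta target genes were called higher in each pair. Of 23 measured, 13 were called higher and 1 lower in cKO baseline against CT baseline (background 3.26% and 1.79%), with a median of 1.36 against 0.00 for all genes. Among the 13 were Timp1 (3.00), Postn (2.50), Ctgf (2.12) and Acta2 (1.56), and Tagln was the lower one (-1.09). In the library labelled cKO TAC against CT TAC 5 were higher, among them Lox, Acta2, Ctgf and Timp1, and none lower (background 2.93% and 2.1%), with a median of 0.44. Between TAC and baseline hearts 14 were higher and 1 lower in CT (median 1.76, background 6.06% and 4.68%). In cKO 14 were higher and none lower (median 1.27, background 3.68% and 2.84%). In limma 12 rose with TAC and none fell, and Ctgf (1.83, SE 0.19, adjusted p = 0.00913) and Acta2 (1.58, SE 0.17, adjusted p = 0.00913) rose in cKO. With TAC, 8 to 13 of the 23 rose under 4 of the 6 alternatives, and 0 without a variance trend or without the genotype term. Ctgf and Acta2 likewise kept the genotype call in those 4 alternatives and lost it without a variance trend or without the TAC term. The list shares Col1a1 and Col1a2 with the fibroblast markers, and it was drawn up with earlier results of these data known, so its direction is not independent evidence.

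Of 13 measured BMP target genes, which include the members Smad6, Smad7 and Bambi, only Hey1 was called in cKO baseline against CT baseline (background 5.05%). Hey1 was at -1.15, and the median of the 13 was -0.54. Smad7 was the 1 called in the library labelled cKO TAC against CT TAC (median 0.30, background 5.02%). Id1, Id2 and Id3, the classical BMP targets, were at -0.71, 0.24 and -0.14 in cKO baseline against CT baseline and at 0.59, 0.44 and 0.30 in the library labelled cKO TAC against CT TAC, and none was called. Between states, Bambi was higher and Nkx2-5 lower (-1.22) in CT (background 10.7% in either direction), and Smad7 was higher in cKO (background 6.53%).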

How the data were processed

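The deposited values were log2 CPM (read counts scaled to library size) per gene symbol, 1 file per library. Per the submitters' processing notes CASAVA, HISAT2 and edgeR were named with the mm10 build, without versions, roles or parameters; strandedness of counting is not given in the sources used here. Low values stepped in whole multiples, so that reads, and CPM without the added read, were recovered from the deposited log2 values. Of the values, 88.5% to 89.0% were whole within 0.01 read, and the others hold shared reads. Ratios of 2 libraries took the deposited log2 values, and intervals (95%, Clopper-Pearson, scipy 1.17.1, Python 3.11.15) the recovered reads. Additive genotype and TAC terms were fitted to log2 CPM of all 12408 genes with limma 3.58.1 (R 4.3.3, trend, Benjamini-Hochberg adjustment), which left 1 residual degree of freedom. The script was tested on simulated data. No low-value filter was added to the deposited list, and all 41 members entered. Each listed gene was above 1 CPM (added read included) in at least 2 libraries, so the list itself appears cut by level. A low gene may thus be listed through the libraries in which it was high. Members described one by one are those called in any pair or limma term, Tgfb1, Tgfb2, Tgfb3, Tgfbr1, Tgfbr2 and the SMADs, and the 2 members per role with the most reads; others were named after their values were seen. Alternatives were total scaling, a CPM pseudocount of 1, no added read, a mean CPM of at least 5, a 1.5-fold threshold, 99% intervals, and limma without trend, without the other term or with a robust prior. Members, lists and thresholds were chosen with earlier results of these data known.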

Additional observations from a re-analysis of the deposited data

Results flagged for a closer look

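For 6 of 41 members (14.6%, against 5.82% of all genes) the ratio of TAC to baseline had opposite signs in the genotypes, the ratios were at least 2-fold apart, and the counting interval of their difference excluded 0. Another 5 members met the first 2 conditions with an interval that included 0 (11 in all, 26.8%, against 14.2% of all genes). For each of the 6, the interval of the TAC ratio in cKO, in CT or in both included 1, so opposite directions were not shown. Examples are Gdf15 in cKO (0.583-fold to 1.36-fold) and Smad7 in CT (0.466-fold to 1.69-fold). With 1 library per group the difference of the ratios was not tested, and each value is the log2 TAC ratio in cKO minus that in CT. Gdf15 was at -2.24 (-0.17 in cKO and 2.07 in CT), and Tgfb2 at -1.74 (-0.09 in cKO and 1.65 in CT). Fstl4 was at 2.17 (0.45 in cKO and -1.71 in CT), and Tgfbr1, some of whose reads were shared, at 1.69 (0.89 in cKO and -0.80 in CT). Smad7 was at 1.66 (1.51 in cKO and -0.15 in CT), and Tgfb3 at 1.15 (0.84 in cKO and -0.31 in CT). Each rests on the label of the library labelled cKO TAC, in which the Sav1 ratio to CT TAC ran against that label. The interval of that ratio included 1 (0.941-fold to 1.81-fold), so no direction was shown for Sav1. The interval at baseline included 1 as well (0.590-fold to 1.09-fold).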

How the results depend on the processing

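No called result changed sign. Alternatives that change only a threshold, interval, level filter or limma variance setting keep the same log2 values, so no sign could change there. Over all members and alternatives 1326 values stayed on their side of the threshold, 15 passed it newly and 11 no longer passed it. Values never called count among those that stayed, so their number is no measure of how stable the calls are. At 1.5-fold, members called numbered 9 in the library labelled cKO TAC against CT TAC and 6 in that library against cKO baseline. All genes called were then 1336 (cKO baseline against CT baseline), 1501 (cKO TAC against CT TAC), 2636 (CT TAC against CT baseline) and 1743 (cKO TAC against cKO baseline). With 99% intervals, all genes called were 411, 398 and 532 in the first, second and last of these pairs, and Bmp7 in both its pairs and Fstl4 under TAC lost the call. For genotype, limma called 9 genes at a mean CPM of at least 5, and 0 without trend or without the other term. For TAC, limma called 1 member (Fstl1) under total scaling, log2(CPM + 1) or a robust prior, and 0 without trend or without the other term. All genes called for TAC were 0 without trend and 20 without the other term. No gene of the pathway or cell type lists was called by limma in either of these fits. The cause of these shifts was not tested. At baseline, total scaling gave 493 genes higher and 171 lower (74.2% higher), against 404 and 222 (64.5%). No paired analysis was possible because each group holds 1 library and replicate numbers only name samples. Leaving out a library leaves no residual degree of freedom, so no such fit was run. With a median of 28 to 45.7 reads per member, changes well under 2-fold were mostly not detectable at this depth.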
